A study of Mus musculus with 69 samples.

Results

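Fatty acid uptake and binding were covered by 10 genes, chosen by name: Cd36, Slc27a1, Slc27a3, Slc27a4, Slc43a3, Fabp3, Fabp4, Fabp5, Lpl and Gpihbp1. All 10 were found among the 56953 gene rows of the count tables by their Ensembl identifier, and no value was used to find them. The list itself was drawn up with earlier results of these data known, and Slc43a3 was put on it as a carrier raised in EC, so that its EC changes are given as a description without a test. The RNA-Seq counts came from 69 libraries of primary cells of male C57BL/6 mice: 16 of WT VSMC, 15 of KO VSMC and 38 of EC. WT VSMC were aortic vascular smooth muscle cells with an intact Egfr gene. KO VSMC were the same cells from mice with floxed Egfr alleles and Cre recombinase under the SM22 promoter, which is active in smooth muscle. EC were heart endothelial cells, labelled WT, which the study had purified by removing CD45+ cells and selecting CD31+ cells. Cells were kept for 24 h without stressors (Control), with 20 mM glucose and 100 µM free fatty acids (HG + FFA), with 30 nM angiotensin II and 300 nM epinephrine as the labels name it, norepinephrine in the study's methods (AII + NA), or with both treatments together (ALL). For the fatty acids the study's methods give 100 µM of oleate and 100 µM of palmitate. They add that all solutions, Control included, held fatty acid free albumin. The age of the animals is not given in the sources used here.

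Libraries were paired in sets, each made of cells of 1 animal. Sets 1 to 4 were WT VSMC, sets 5 to 8 KO VSMC and sets 9 to 18 EC. Each VSMC condition held 4 libraries except ALL in KO VSMC with 3, and EC held 9 Control, 10 HG + FFA, 9 AII + NA and 10 ALL libraries from 9 animals, since sets 17 and 18 shared 1 animal. All VSMC were labelled with one batch and all EC with another, so that batch and cell type cannot be told apart. The animals of EC sets 15 and 16 had also given the KO VSMC of sets 7 and 6, and those of EC sets 9 and 10 the WT VSMC of sets 1 and 2. Total counts lay between 17166133 and 43240489 per library.

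Long-chain fatty acids reach the vessel wall bound to albumin or inside lipoproteins. Lipoprotein lipase (Lpl) frees them from lipoprotein triglycerides, and Gpihbp1 carries this enzyme to the luminal face of the capillary endothelium. Cd36 binds fatty acids at the plasma membrane, the fatty acid transport proteins Slc27a1, Slc27a3 and Slc27a4 couple uptake to the formation of acyl-CoA, and Slc43a3 carries purine nucleobases and affects fatty acid flux. Inside the cell the binding proteins Fabp3, Fabp4 and Fabp5 hold fatty acids in solution and bring them to enzymes and to nuclear receptors. The capillary endothelium of the heart is known for high levels of Cd36, Fabp4, Fabp5 and Gpihbp1. Several of these genes are known targets of PPAR nuclear receptors, which are activated by fatty acids and bind, with their partner RXR, to repeats of the motif AGGTCA.

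Upstream sequences of 3 members that changed under the stressors are shown because the changes below had different directions, with Cd36 and Slc27a4 higher and Slc27a3 lower. They are the 250 bases before the start of each gene in the RefSeq promoter table of GRCm38.p6, a different build from the mm39 assembly of the counts. They are written 5′ to 3′ on the strand of the gene, and capitals mark a match to AGGTCA on either strand. The table held 5 of the 10 members.
Cd36, chr5:17835897-17836146, minus strand: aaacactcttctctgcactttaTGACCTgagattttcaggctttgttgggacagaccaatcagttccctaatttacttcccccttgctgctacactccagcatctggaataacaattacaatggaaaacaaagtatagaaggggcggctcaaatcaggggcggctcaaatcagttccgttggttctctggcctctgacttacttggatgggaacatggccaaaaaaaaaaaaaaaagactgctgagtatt
Slc27a3, chr3:90389939-90390188, minus strand: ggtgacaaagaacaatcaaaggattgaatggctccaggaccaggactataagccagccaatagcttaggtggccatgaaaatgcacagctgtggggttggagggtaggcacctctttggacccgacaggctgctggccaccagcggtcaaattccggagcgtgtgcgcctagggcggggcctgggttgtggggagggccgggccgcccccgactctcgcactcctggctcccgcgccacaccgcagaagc
Slc27a4, chr2:29802384-29802633, plus strand: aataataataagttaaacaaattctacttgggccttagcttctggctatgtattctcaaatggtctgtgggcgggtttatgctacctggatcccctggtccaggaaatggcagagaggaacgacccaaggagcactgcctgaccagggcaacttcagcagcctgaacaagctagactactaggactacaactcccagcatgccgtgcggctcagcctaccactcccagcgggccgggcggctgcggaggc
The Cd36 window held 1 half-site AGGTCA, on the opposite strand and beginning at base -228 from the start site, and the other 2 windows held none. Of the 32851 windows in the table, 14% held this half-site. The direct repeat AGGTCANAGGTCA was in none of the 3 windows and in 0.0335% of all windows. A match describes the letters of the window and is no evidence of binding.

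Egfr, the gene targeted in KO VSMC, checked the genotype labels. It lay between 226 and 500 FPM in the WT VSMC libraries, where FPM is the count of a gene scaled to the TMM-normalized size of its library (edgeR's cpm) over all 69 libraries. KO VSMC sets 6 to 8 held at most 1.99 FPM and set 5 held 33.7 to 40.2 FPM. EC libraries ranged from 2.16 to 168 FPM, with the lowest values in set 16. EC sets 15 and 16 were labelled WT, but their animals had also given KO VSMC. By the animal labels the EC thus came from mice of both genotypes.

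The cell type labels were checked with 10 endothelial, 8 smooth muscle and 6 fibroblast marker genes, and they held only in part. Averaged over each set, the summed endothelial markers were 126 to 232 FPM in KO VSMC, 248 to 356 FPM in WT VSMC and 355 to 5858 FPM in EC. EC sets 9, 11 and 13 had 355, 424 and 414 FPM, close to the VSMC. Cdh5, the cadherin of endothelial junctions, was 8.73, 41.7 and 12 FPM in these sets and 111 to 903 FPM in the other EC sets. It was at most 1.77 FPM in VSMC, apart from set 2 with 18.8 FPM. The summed fibroblast markers reached 9677 and 10493 FPM in EC sets 11 and 13 and fell to 724 FPM in set 12. They were 4847 to 9569 FPM in WT VSMC and 1853 to 6443 FPM in KO VSMC. In every set of all 3 cell types they lay above the summed smooth muscle markers, in EC set 12 only narrowly (724 against 723 FPM). Smooth muscle markers were found in all cultures, where the set means of their sum spanned 214 to 3254 FPM for EC, 749 to 1273 FPM for WT VSMC and 896 to 3239 FPM for KO VSMC. Acta2 carried most of this, and Tagln, the gene whose promoter drove Cre, was at most 10.6 FPM in VSMC. This value is uncertain, since 66.7% of the exonic bases of Tagln are shared with Pcsk7 and Gm48529 on the opposite strand and the strand setting of the counting is not stated. The summed set means of 7 cardiomyocyte markers were 4.77 to 278 FPM, those of 6 macrophage markers 6.06 to 204 FPM and those of 3 lymphatic endothelial markers 2.04 to 67.5 FPM over all sets. All 6 adipocyte markers together had at most 0.436 FPM in any set, and Adipoq was at most 0.0626 FPM. In bulk RNA fewer cells of a type and less RNA per cell cannot be told apart.

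Over all conditions Fabp5 was the most abundant member per length of transcript in every cell type and Gpihbp1 the least. Levels between genes are given as FPM per kb of the Ensembl canonical transcript, averaged over the 3 or 4 libraries of a set, as the median of the sets. In WT VSMC the order was Fabp5 with 186, Slc43a3 with 60.2, Fabp4 with 26.6, Slc27a3 with 17.1, Slc27a1 with 13.9, Lpl with 10.9, Slc27a4 with 8.54, Fabp3 with 5.80 and Cd36 with 0.463 FPM per kb. The sets of neighbours did not overlap between Fabp5 and Slc43a3, between Fabp4 and Slc27a3 and between Fabp3 and Cd36, and overlapped for all other neighbours. In EC the order was Fabp5 with 63.5, Slc43a3 with 53.2, Lpl with 8.19, Slc27a4 with 6.43, Fabp4 with 4.82, Slc27a1 with 4.8, Slc27a3 with 4.74, Fabp3 with 1.40 and Cd36 with 0.104 FPM per kb. All neighbours in the EC order overlapped. In KO VSMC, Fabp5 with 129 and Slc43a3 with 33.0 FPM per kb led as well, followed by Slc27a1 with 11 and Fabp3 with 9.29, and Lpl with 1.13 and Cd36 with 0.0525 FPM per kb came last of the 9. The plot of Control levels gives the libraries without stressors.

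**Figure D1:**
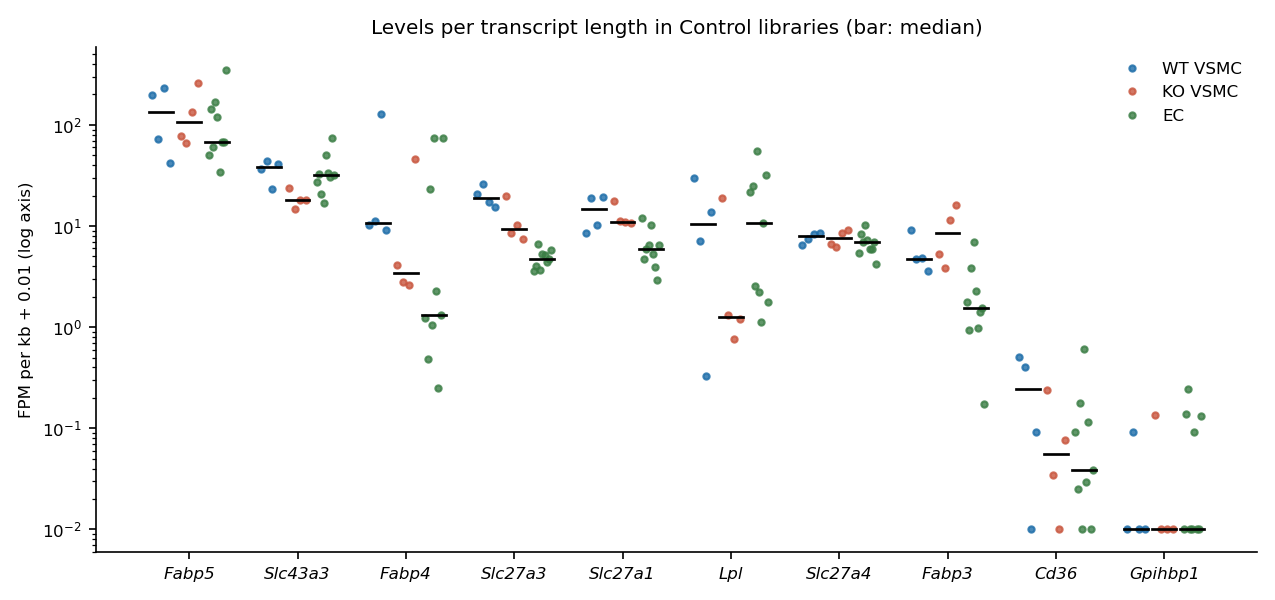
Level of the 10 members in the Control libraries of 3 cell types, as FPM per kb of transcript plus 0.01 on a log axis. Each point is 1 library (4 WT VSMC, 4 KO VSMC, 9 EC) and the bar is the median. Fabp5 was highest in each cell type, Gpihbp1 lay at or near 0, and Lpl, Fabp4 and Cd36 spread most between libraries of 1 cell type.

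The members differed in how much their level varied between sets of the same cell type. Over the 10 EC sets the highest set mean of Slc27a4 was 2.08 times the lowest, that of Slc27a3 2.31 times and that of Slc43a3 3.55 times. For Lpl the same ratio was 53.2 and for Fabp4 it was 127. Cd36 ranged from 0 counts in all libraries of EC set 13 to a mean of 40.2 FPM in set 12. Sets 17 and 18 of 1 animal also differed. Fabp4 averaged 5.61 FPM in set 17 and 111 FPM in set 18, Fabp5 69.3 and 363 FPM, and Lpl 126 and 6.45 FPM.

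Under Control conditions, EC had less Slc27a3 and Slc27a1 than WT VSMC. These were 2 of 9 members called in this comparison (edgeR quasi-likelihood test, FDR under 0.05), in which 12% of all genes tested were called. The test had no block, although EC set 9 and WT VSMC set 1 came from 1 animal, as did EC sets 17 and 18. The median log2FC of the 9 members was -0.98, against 0.05 over all genes tested. Slc27a3 (ENSMUSG00000027932, chromosome 3, 90291676 to 90297320 of GRCm39) was 66.7, 84.7, 56 and 50.1 FPM in sets 1 to 4 of WT VSMC and 11.6 to 21.3 FPM, median 15.2, in the 9 EC libraries. The groups did not overlap. The log2FC was -2.05 (SE 0.18, FDR 0.000101). For Slc27a1 (ENSMUSG00000031808, chromosome 8, 72021095 to 72041866) the 4 WT VSMC libraries had 45.6, 103, 55.0 and 105 FPM, while EC ranged from 15.5 to 64.4 FPM with a median of 31.5. These ranges overlapped through EC sets 9 and 14. The log2FC of -1.14 (SE 0.34, FDR 0.0410) lost its call in 8 of 13 fits that left out 1 set, those without sets 1, 2, 3, 4, 12, 15, 16 or 18.

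In KO VSMC the Control levels of Slc43a3 were 63.6, 38.8, 47.5 and 48.3 FPM in sets 5 to 8, against 97.6, 117, 61.9 and 108 FPM in sets 1 to 4 of WT VSMC. The groups overlapped only through KO VSMC set 5 and WT VSMC set 3. No member was called between the genotypes in edgeR, where 0.00622% of genes were called, 1958 genes had an unadjusted p under 0.05 and DESeq2 called 380. Slc43a3 had a log2FC of -0.96 (SE 0.23, FDR 0.282 in edgeR and 0.0201 in DESeq2). Set 5 retained Egfr RNA and also had the highest summed smooth muscle, fibroblast and macrophage markers of the KO VSMC sets. Without set 5, edgeR called Slc43a3 with a log2FC of -1.10 (SE 0.23, FDR 0.0481) and Slc27a3 with -1.20 (SE 0.21, FDR 0.0338). The summed fibroblast markers moved with this comparison, at 1853 to 2541 FPM in KO VSMC sets 6 to 8 against 4847 to 9569 FPM in WT VSMC, and their part in it was not tested. Lpl was 78.5 FPM in KO VSMC set 5 and 3.10 to 5.33 FPM in sets 6 to 8.

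The stressors were compared with the Control library of the same set. In WT VSMC, HG + FFA called 1 of 9 tested members, where 0.538% of all genes tested were called. ALL stressors called 6 of the 9, 5 higher and 1 lower, against 7.45% of all genes, 3.92% higher and 3.53% lower. In KO VSMC 2 of 9 were called under HG + FFA and 2 of 9 under ALL stressors, with 0.439% and 0.399% of all genes. In EC 3 of 9 were called under HG + FFA and 3 of 9 under ALL stressors, with 3.53% and 3.18% of all genes. Slc43a3 was 1 of these 3 in both EC comparisons, and its choice had used a rise in EC. The EC counts are therefore given as a description and not as a test of the list. Under ALL stressors the members had a median log2FC of 0.00 in EC, 0.75 for WT VSMC and 0.11 for KO VSMC, where that of all genes was -0.01, -0.01 and 0.00. The 3 stressor conditions of a cell type share their Control libraries.

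**Figure D2:**
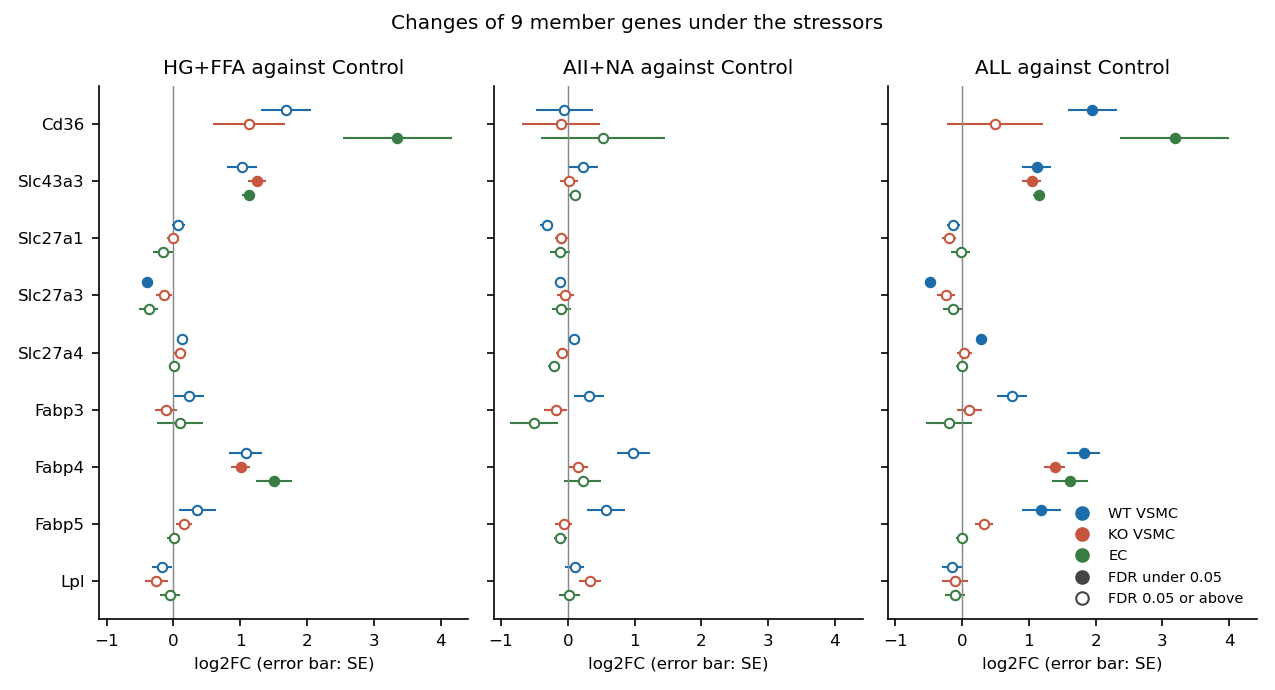
Change of the 9 members tested under HG + FFA, AII + NA and ALL stressors in WT VSMC, KO VSMC and EC. The x axis gives edgeR's log2FC against Control. The error bar is an SE derived from the F statistic of the test, and filled points have an FDR under 0.05. Slc43a3 and Fabp4 lie to the right of 0 in all 3 cell types under HG + FFA and ALL stressors, Cd36 has the widest errors, and no point is filled under AII + NA. The filled EC points of Slc43a3 are a description, since a rise in EC was part of its choice.

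Slc43a3 (ENSMUSG00000027074, chromosome 2, 84766862 to 84788865 of GRCm39) was higher under HG + FFA and ALL stressors in each cell type. In EC, where a rise was part of its choice, the Control libraries lay between 44.3 and 195 FPM with a median of 84.6, the HG + FFA libraries between 103 and 371 FPM with a median of 185, and the ALL libraries between 121 and 350 FPM with a median of 184. The groups overlapped because sets differed in their baseline, but the treated library was higher than its Control in 9 of 9 sets under both treatments, by 1.42 to 3.04 times under HG + FFA and 1.61 to 2.77 times under ALL. The log2FC was 1.13 (SE 0.09) for HG + FFA and 1.15 (SE 0.09) for ALL.

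In WT VSMC sets 1 to 4, Slc43a3 went from 97.6, 117, 61.9 and 108 FPM in Control to 247, 179, 173 and 160 FPM under HG + FFA and to 293, 216, 143 and 178 FPM under ALL stressors. Every set was higher under both treatments. The log2FC was 1.03 (SE 0.22, FDR 0.0531) for HG + FFA, which missed the threshold in edgeR and passed it in DESeq2 (FDR 0.0267), and 1.11 (SE 0.22, FDR 0.00674) for ALL. In KO VSMC the values of sets 5 to 8 rose from 63.6, 38.8, 47.5 and 48.3 FPM to 148, 61.8, 147 and 132 FPM under HG + FFA, and sets 6 to 8 reached 59.9, 122 and 105 FPM under ALL. The log2FC was 1.25 (SE 0.14, FDR 0.00157) and 1.04 (SE 0.15, FDR 0.00612). Without set 7 these fell to 1.13 (FDR 0.0815) and 0.89 (FDR 0.212) for Slc43a3.

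No difference in the response of Slc43a3 was called between genotypes. The difference of the HG + FFA effect, WT VSMC minus KO VSMC, was -0.22 (SE 0.28, FDR 1.0 in edgeR), and that of the ALL effect was 0.08 (SE 0.30, FDR 0.969). For EC minus WT VSMC the differences were 0.09 (SE 0.21) and 0.05 (SE 0.21), given without a test.

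Fabp4 (ENSMUSG00000062515, chromosome 3, 10268785 to 10273737 of GRCm39) encodes the fatty acid binding protein of adipocytes and capillary endothelium. In WT VSMC sets 1 to 4 it was 14, 15.2, 173 and 12.4 FPM in Control, 45.1, 31.8, 296 and 22.2 FPM under HG + FFA, 29.6, 28.2, 185 and 47.4 FPM under AII + NA, and 53.5, 67.9, 347 and 64.1 FPM under ALL. Set 3 was far above the others in each condition, and all 4 sets were higher than their Control under each treatment. The log2FC was 1.08 (SE 0.25, FDR 0.0697) for HG + FFA, 0.98 (SE 0.25, FDR 0.175) for AII + NA and 1.82 (SE 0.25, FDR 0.000793) for ALL, so that ALL alone passed the threshold in edgeR. DESeq2 called HG + FFA as well (FDR 0.0278).

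In KO VSMC sets 5 to 8 Fabp4 went from 5.63, 3.77, 3.54 and 63.3 FPM in Control to 12.3, 6.60, 9.91 and 106 FPM under HG + FFA, and sets 6 to 8 to 8.01, 12.4 and 142 FPM under ALL. Under AII + NA it was 9.13, 3.34, 4.78 and 54.4 FPM, higher in 2 sets and lower in 2. The log2FC was 1.01 (SE 0.14, FDR 0.00459) for HG + FFA, 0.16 (SE 0.15, FDR 0.656) for AII + NA and 1.39 (SE 0.16, FDR 0.00212) for ALL. Without set 7 Fabp4 had 0.88 (FDR 0.187) and 1.25 (FDR 0.130) under HG + FFA and ALL, and without set 6 it had 1.05 (FDR 0.112) and 1.47 (FDR 0.0626), so that these calls needed both sets. The AII + NA effect differed between WT VSMC and KO VSMC by 0.84 (SE 0.33, p = 0.0168, FDR 0.395 in edgeR), which did not pass the threshold.

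In EC Fabp4 ranged from 0.328 to 101 FPM in Control with a median of 1.80, from 1.05 to 174 FPM under HG + FFA with a median of 8.81, and from 1.05 to 185 FPM under ALL with a median of 10.9. Sets 12, 14 and 18 were high in all conditions. All 9 sets with a Control library were higher under HG + FFA (1.10 to 6.92 times) and under ALL (1.10 to 7.96 times), with the smallest ratio in set 18 in both. The log2FC was 1.51 (SE 0.27, FDR 0.000659) for HG + FFA and 1.61 (SE 0.27, FDR 0.000300) for ALL. With the animal as the block in place of the set, which puts sets 17 and 18 into 1 block, Fabp4 had a log2FC of 1.33 (FDR 0.353) and 1.43 (FDR 0.338) and was not called.

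Cd36 (ENSMUSG00000002944, chromosome 5, 17986432 to 18094067 of GRCm39) was low in Control cells and rose steeply in few cultures. In EC set 12 it went from 0.583 FPM in Control to 88.8 FPM under HG + FFA and 70.2 FPM under ALL, and in set 14 from 2.1 to 20.2 and 19.6 FPM. In the other 8 EC sets no library exceeded 2.04 FPM. Set 13 had 0 counts in its 4 libraries, where 3 counts correspond to 0.0700 to 0.185 FPM over all libraries of the series. The log2FC was 3.35 (SE 0.81, FDR 0.0159) for HG + FFA and 3.19 (SE 0.82, FDR 0.0247) for ALL, but the median ratio over the 9 sets, with 0.1 FPM added to both values, was 2.07 and 1.0. Of these sets 6 were higher and 2 lower under HG + FFA, and 4 higher and 3 lower under ALL.

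The EC calls of Cd36 rested on few libraries. DESeq2 gave log2FC of 2.25 (FDR 0.0964) and 1.96 (FDR 0.187). Without set 12 the edgeR values for Cd36 were 1.92 (FDR 0.289) and 1.81 (FDR 0.285), without set 14 they were 3.26 (FDR 0.0971) and 3.08 (FDR 0.131), and without set 15 they were 3.21 (FDR 0.0598) and 3.15 (FDR 0.0677). The animal as the block also ended the call (FDR 0.108 and 0.136). Sets 12 and 14 were the EC sets with the lowest summed fibroblast markers, 724 and 1028 FPM. The part of culture composition in the change was not tested.

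In WT VSMC sets 1 to 4 Cd36 was 1.74, 1.37, 0 and 0.289 FPM in Control, 7.17, 3.53, 0.0279 and 0.901 FPM under HG + FFA, and 8.44, 4.10, 0.180 and 0.837 FPM under ALL. Sets 3 and 4 stayed under 1 FPM throughout. All 4 sets were higher under both treatments, but set 3 held 0 counts in Control, 1 under HG + FFA and 5 under ALL. Its direction under HG + FFA thus rests on 1 count. The log2FC was 1.69 (SE 0.37, FDR 0.0570 in edgeR and 0.0188 in DESeq2) for HG + FFA and 1.95 (SE 0.37, FDR 0.00533 in edgeR) for ALL. The call under ALL held without any single set. In KO VSMC only set 5 exceeded 1 FPM, and the log2FC was 1.13 (SE 0.54, FDR 0.403) for HG + FFA and 0.50 (SE 0.72, FDR 0.833) for ALL. Set 5 had no ALL library, and the 3 KO VSMC libraries under ALL held 1 to 6 counts of Cd36.

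**Figure D3:**
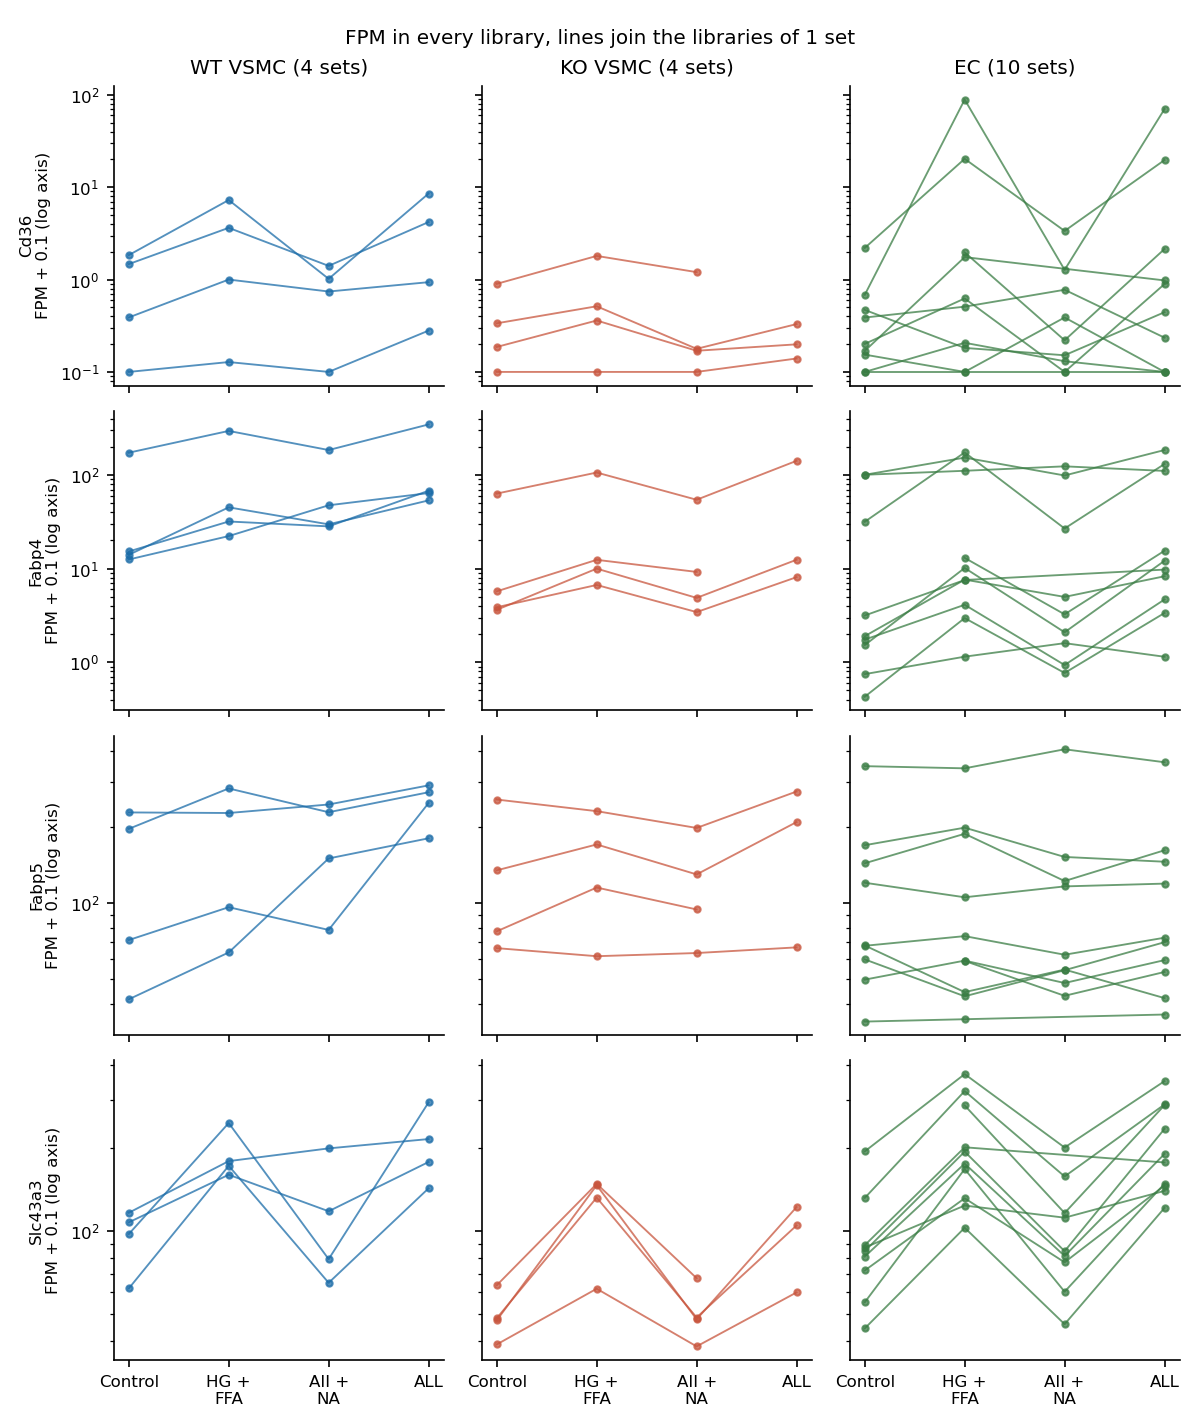
FPM of Cd36, Fabp4, Fabp5 and Slc43a3 (rows) in every library of WT VSMC, KO VSMC and EC (columns), with 0.1 added and on a log axis. Lines join the libraries of 1 set over Control, HG + FFA, AII + NA and ALL. Slc43a3 is higher with HG + FFA and ALL and lies near Control under AII + NA in most sets, Fabp4 sets lie far apart, Cd36 rises steeply in EC sets 12 and 14, and the Fabp5 sets of WT VSMC lie closest together under ALL.

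Fabp5 (ENSMUSG00000027533, chromosome 3, 10077602 to 10081674 of GRCm39), the binding protein found in skin, macrophages and endothelium, rose in WT VSMC under ALL stressors. Sets 1 to 4 had 196, 71.4, 228 and 41.7 FPM in Control, 283, 96.3, 227 and 63.8 FPM under HG + FFA, 228, 78.3, 245 and 150 FPM under AII + NA and 274, 248, 291 and 180 FPM under ALL. The 4 sets lay closer together under ALL than in Control, because sets 2 and 4, the lowest in Control, rose most, set 4 by 4.32 times. The log2FC was 1.19 (SE 0.29, FDR 0.0198). Without set 2 or set 4 the log2FC of Fabp5 was 0.94 in both fits, with FDR of 0.0919 and 0.0616.

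In EC Fabp5 was 34.0 to 347 FPM in Control with a median of 68.0 and 36.3 to 359 FPM under ALL with a median of 71.5. It was higher in 6 and lower in 3 of 9 sets, and the log2FC was 0.00 (SE 0.09). The ALL effect in EC minus that in WT VSMC was -1.18 (SE 0.25, FDR 0.0109), the only difference between cell types called for a member, with 0.511% of all genes called. This call was lost without set 2 (-0.93, FDR 0.174), without set 4 (-0.94, FDR 0.0848) and with the animal as the block for Fabp5 (-1.19, FDR 1.0). In KO VSMC the ALL effect on Fabp5 was 0.33 (SE 0.14, FDR 0.409), and the difference of WT VSMC minus KO VSMC was 0.86 (SE 0.36, p = 0.0254, FDR 0.609 in edgeR).

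Fabp3 (ENSMUSG00000028773, chromosome 4, 130202388 to 130209259 of GRCm39), the binding protein of heart and skeletal muscle, was 3.84, 3.95 and 2.96 FPM in Control in WT VSMC sets 2, 3 and 4 and 7.51 FPM in set 1. Under ALL it was 9.5, 4.90, 5.40 and 9.74 FPM in the same order, higher in 4 of 4 sets, with a log2FC of 0.75 (SE 0.23, FDR 0.0595 in edgeR and 0.0164 in DESeq2). In KO VSMC and EC its log2FC lay between -0.50 and 0.11 over all stressors and none was called. Reads of Fabp3 are uncertain, since 38.5% of its exonic bases are shared with Zcchc17 and Gm10570 on the opposite strand and the strand setting of the counting is not stated. Zcchc17 had a median of 32.4 FPM in WT VSMC. The pseudogene Fabp3-ps1 had at most 0.288 FPM in WT VSMC and 0.283 FPM in KO VSMC libraries. In EC its median was 0.107 FPM and its maximum 1.58 FPM, where Fabp3 itself averaged 1.81 FPM in Control.

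Of the 3 fatty acid transport proteins, Slc27a3 fell and Slc27a4 rose in WT VSMC. Slc27a3, an acyl-CoA synthetase of this family, went from 66.7, 84.7, 56 and 50.1 FPM in Control to 58.9, 57.7, 41.5 and 37.9 FPM under HG + FFA and to 58.3, 53.8, 40.8 and 32.8 FPM under ALL. It was lower in 4 of 4 sets under both. The log2FC was -0.40 (SE 0.08, FDR 0.0407) for HG + FFA and -0.48 (SE 0.08, FDR 0.00266) for ALL. Neither reached the 0.64 that the study asked of a DEG. The call under HG + FFA was lost for Slc27a3 without set 2 (FDR 0.163), set 3 (FDR 0.313) or set 4 (FDR 0.115).

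In EC Slc27a3 had a log2FC of -0.37 (SE 0.14, FDR 0.151) for HG + FFA, lower in 7 of 9 sets, and of -0.14 (SE 0.14, FDR 0.687) for ALL. In KO VSMC it was -0.14 (SE 0.12, FDR 0.631) and -0.25 (SE 0.14, FDR 0.555). Slc27a4 (ENSMUSG00000059316, chromosome 2, 29692598 to 29710004 of GRCm39), widely expressed and essential in skin, was 42.6, 48.8, 54.1 and 55.2 FPM in WT VSMC Control and 53.2, 63.5, 60.3 and 67.8 FPM under ALL. All 4 sets were higher, by 1.11 to 1.3 times, with a log2FC of 0.29 (SE 0.07, FDR 0.0210). The call on Slc27a4 was lost whichever set was left out (FDR 0.0503 to 0.105). In KO VSMC and EC its log2FC lay between -0.21 and 0.09 over all stressors.

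Slc27a1, the insulin-responsive transporter of muscle and fat, was not called under any stressor in edgeR. Its largest change was -0.32 (SE 0.10, p = 0.00474, FDR 0.264 in edgeR) under AII + NA in WT VSMC, where sets 1, 2 and 4 were lower and set 3 was not. The values were 45.6, 103, 55.0 and 105 FPM in Control and 35.7, 68.3, 56.3 and 78.8 FPM under AII + NA. Across the 3 cell types and 3 conditions the other changes of Slc27a1 lay between -0.20 and 0.07.

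Lpl (ENSMUSG00000015568, chromosome 8, 69284603 to 69360100 of GRCm39) was not called under any stressor. In WT VSMC sets 1 to 4 it was 122, 29.5, 1.31 and 56.8 FPM in Control and 70.1, 28.4, 2.05 and 61.3 FPM under ALL, and the 4 sets kept their order. In EC it ranged from 4.61 to 227 FPM in Control with a median of 44.2 and from 3.96 to 340 FPM under ALL with a median of 33.6. The log2FC of Lpl over the 9 stressor comparisons lay between -0.25 and 0.33. Gpihbp1 (ENSMUSG00000022579, chromosome 15, 75468474 to 75471331), the endothelial partner of Lpl, was too low to be tested. It had 0 counts in 14 of 16 WT VSMC, 12 of 15 KO VSMC and 22 of 38 EC libraries, and its highest value was 0.626 FPM in EC set 12 under ALL. The EC libraries held 86 of its counts in all, from which no change could be read.

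AII + NA alone called no member in any cell type in edgeR. Of all genes it called 0.0532% for WT VSMC, 0.0% for KO VSMC and 0.0% for EC, where 1592, 1711 and 1143 genes had an unadjusted p under 0.05 and DESeq2 called 162, 38 and 65. Of the 9 members, 2, 0 and 1 had an unadjusted p under 0.05. When ALL was compared with HG + FFA, no member was called in edgeR or DESeq2, and 5, 1 and 0 members had an unadjusted p under 0.05 in WT VSMC, KO VSMC and EC. Both edgeR results depend on the low-count filter, without which members were called in WT VSMC in both comparisons, as given below. The differences in WT VSMC included 0.83 (SE 0.29, FDR 0.288) for Fabp5, 0.74 (SE 0.24, FDR 0.265) for Fabp4 and 0.51 (SE 0.23, FDR 0.422) for Fabp3, where 0.0414% of all genes were called, against 0.0% in KO VSMC and in EC. For Slc43a3 it was 0.03 (SE 0.09) in EC, 0.09 (SE 0.22) for WT VSMC and -0.21 (SE 0.15) for KO VSMC. Departure from additivity, ALL minus the sum of HG + FFA and AII + NA on the log2 scale, was called for none of the 9 members in edgeR or DESeq2, with 0.0% of genes called in edgeR. The smallest unadjusted p of a member was 0.112 in EC, 0.432 for WT VSMC and 0.144 for KO VSMC. Over all genes tested, 1444, 290 and 1155 had an unadjusted p under 0.05 in this order, and DESeq2 called 83, 6 and 14.

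Between genotypes no difference in the effect on a member was called in edgeR or DESeq2, with at most 0.0109% of genes called in edgeR in any of the 3 stressor comparisons, where DESeq2 called 85, 90 and 159 genes for HG + FFA, AII + NA and ALL. Of the 9 members, 0, 1 and 2 had an unadjusted p under 0.05 for HG + FFA, AII + NA and ALL. These edgeR fits used the low-count filter. Without the filter edgeR called members for the genotype difference of AII + NA and of ALL, as given below. In the filtered fits, that ALL called 6 members in one genotype and 2 in the other is therefore not shown to be a difference. Between EC and WT VSMC no member was called in edgeR or DESeq2 for HG + FFA or AII + NA, where 0.0% and 0.0465% of all genes were called in edgeR and 0 and 2 members had an unadjusted p under 0.05. For AII + NA this also held only with the filter.

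Over the 9 EC animals the level of some members followed the marker genes of the culture. Libraries were averaged per animal, marker level is the mean log2(FPM + 0.1) over the list, and 10 members were related to each of the endothelial and fibroblast lists. Lpl was lower where endothelial markers were higher (Pearson r = -0.93, exact permutation p = 0.000287, adjusted p = 0.00287; Spearman rho = -0.90, p = 0.00203, n = 9 animals), and r was -0.93 without the 2 animals farthest from the median. Slc27a3 was higher with endothelial markers (r = 0.88, exact permutation p = 0.00169, adjusted p = 0.00846; rho = 0.70, p = 0.0433, n = 9), with r = 0.77 without the 2 farthest animals. It missed the threshold without the animal of set 11 (adjusted p = 0.0689, exact permutation). Cd36 (r = 0.74, exact permutation p = 0.0262, adjusted p = 0.0874; rho = 0.77, p = 0.0214) and Fabp4 (r = 0.68, exact permutation p = 0.0465, adjusted p = 0.116; rho = 0.72, p = 0.0369) did not pass after adjustment over the 10 members.

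With the fibroblast markers Cd36 had r = -0.95 (exact permutation p = 0.000642, adjusted p = 0.00642; rho = -0.92, p = 0.00131) and Fabp4 r = -0.87 (exact permutation p = 0.00324, adjusted p = 0.0162; rho = -0.87, p = 0.00451). These relations rest on the animals of sets 12 and 14, which were the 2 farthest from the median: without them r was -0.75 (exact permutation p = 0.0512) for Cd36 and -0.57 (exact permutation p = 0.173) for Fabp4. Lpl had r = 0.79 (exact permutation p = 0.0104, adjusted p = 0.0346; rho = 0.90, p = 0.00203), and r = 0.86 without the 2 animals, but it missed the threshold after adjustment in 7 of 9 runs that left out 1 animal. In the Control libraries alone no member passed with fibroblast markers, and Lpl and Slc27a3 passed with endothelial markers. The 2 marker levels were related to each other (r = -0.77, exact permutation p = 0.0157; rho = -0.87, p = 0.00451, n = 9), so that the lists are not independent. The other members had adjusted p of 0.164 to 0.915 with endothelial and 0.165 to 0.697 with fibroblast markers.

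**Figure D4:**
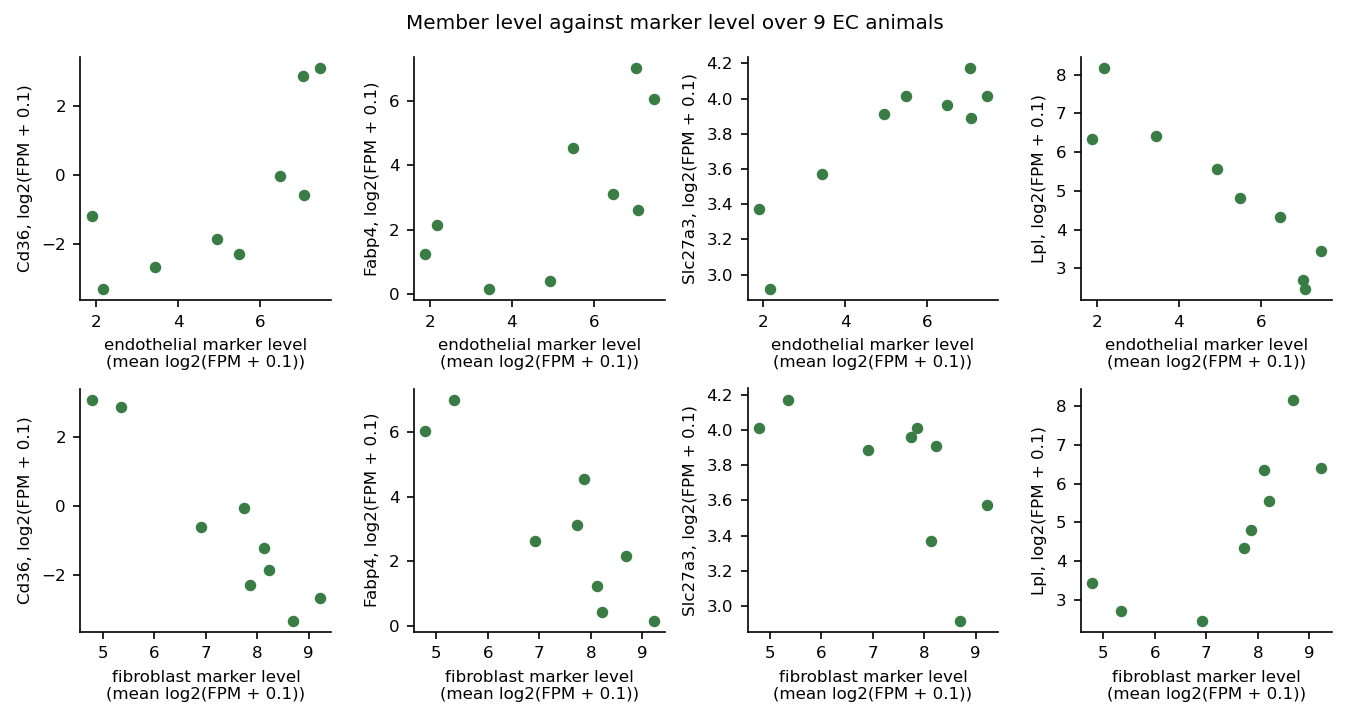
Level of Cd36, Fabp4, Slc27a3 and Lpl in EC, as log2(FPM + 0.1) averaged over the libraries of an animal, against the mean log2(FPM + 0.1) of 10 endothelial (top) and 6 fibroblast (bottom) markers. Each point is 1 of 9 animals. Lpl falls along the endothelial axis (r = -0.93), and the 2 animals at the left of the fibroblast axis, sets 12 and 14, hold the highest Cd36 and Fabp4.

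Genes of neighbouring pathways were followed in lists. Of 11 fatty acid responsive PPAR target genes outside uptake 10 were tested, and under HG + FFA 8 were higher in EC, 2 for WT VSMC and 6 for KO VSMC, with none lower, where 3.53%, 0.538% and 0.439% of all genes were called. Under ALL stressors 8, 4 and 6 were higher in this order, where 3.18%, 7.45% and 0.399% of all genes were called. In EC, Pdk4, the kinase that blocks pyruvate oxidation, had a log2FC of 1.20 (SE 0.13, FDR 9.90e-08) under HG + FFA, Plin2, which coats lipid droplets, 0.91 (SE 0.14, FDR 9.88e-05), and Cpt1a, the gate of mitochondrial fatty acid import, 0.80 (SE 0.07, FDR 4.92e-09). In KO VSMC these 3 genes had 1.63, 0.54 and 1.04. In WT VSMC Pdk4 was among the called genes with 1.52 (SE 0.23, FDR 0.00667). The median log2FC of the 10 under HG + FFA was 0.54 in EC, 0.30 for WT VSMC and 0.47 for KO VSMC, against 0.00, -0.01 and 0.00 over all genes.

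Around Lpl itself, 11 of 16 listed genes were tested. Angptl4, a secreted inhibitor of lipoprotein lipase, rose in EC by 3.22 (SE 0.31, FDR 2.25e-08) under HG + FFA and by 3.22 (SE 0.31, FDR 2.86e-08) under ALL, in KO VSMC by 2.13 (SE 0.36, FDR 0.0151) and 2.37 (SE 0.39, FDR 0.0176), and in WT VSMC by 1.28 (SE 0.29, FDR 0.0138) under ALL. Vldlr, a receptor for triglyceride-rich lipoproteins, fell in the same 5 comparisons, by 0.38 on the log2 scale in EC under HG + FFA and by 0.72 on the log2 scale in WT VSMC under ALL. Angptl4 was not called in WT VSMC under HG + FFA. This is no evidence of absence, since the study's paired confidence interval for this comparison lay above no change.

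Among 11 membrane partners of uptake, Scarb1 rose (0.58, SE 0.12, FDR 0.00976) and Fyn fell (-0.31, SE 0.07, FDR 0.0178) in WT VSMC under ALL, and Cavin2 rose in KO VSMC under ALL (0.61, SE 0.12, FDR 0.0364). Of 8 genes of acyl-CoA formation and binding, Dbi, the acyl-CoA binding protein, alone was called under a stressor, with 0.59 (SE 0.10, FDR 0.000373) in EC under HG + FFA, 0.64 (SE 0.10, FDR 0.000104) in EC under ALL and 0.56 (SE 0.14, FDR 0.0216) in WT VSMC under ALL. Of all genes 3.53%, 3.18% and 7.45% were called in these comparisons. Of 12 regulators of endothelial fatty acid transport 10 were tested. Flt1, a VEGF receptor, rose in WT VSMC under ALL (0.82, SE 0.18, FDR 0.00999) and fell in EC (-0.41, SE 0.08, FDR 0.00227), and the difference of the effects was called (-1.23, SE 0.18, FDR 6.59e-05). Foxo1 fell in WT VSMC under ALL (-0.50, SE 0.11, FDR 0.0101) and Nrp1 fell in EC under ALL (-0.30, SE 0.08, FDR 0.0448). Of the 12 other family members 3 were tested and none was called under any stressor, where at most 7.45% of all genes were called. Fabp1, Fabp2, Fabp6, Fabp9, Fabp12 and Pmp2 were at 0 FPM in all EC Control libraries. Between EC and WT VSMC in Control, Cav2 (2.54, SE 0.36, FDR 0.00169) and Cav1 (2.36, SE 0.69, FDR 0.0409), the caveolins, were higher in EC, as was Nrp1 (1.59, SE 0.46, FDR 0.0386), while Meox2 (-4.20, SE 1.27, FDR 0.0463), Vegfb (-1.46, SE 0.33, FDR 0.0136) and Dbi (-1.24, SE 0.22, FDR 0.00456) were lower.

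The genes whose levels moved most like a called member were found from set-centred log2(FPM + 0.1), as a description over libraries that share their sets. For Slc43a3 they were Scarb2 (r = 0.96), Angptl4 (r = 0.95) and Vwa8 (r = 0.95) over the 38 EC libraries, Acly (r = 0.97), Pfkfb3 (r = 0.97) and Mbd1 (r = 0.97) over the 16 WT VSMC libraries, and Mbd1 (r = 0.96), Cyb5b (r = 0.96) and Fads1 (r = 0.96) over the 15 KO VSMC libraries. Mbd1 was the gene named in both VSMC. For Fabp4 they were Gria4, Vwa8 and Cpt1a in EC (r = 0.87 to 0.88), Adcy1, Prex2 and Atg16l2 in WT VSMC (r = 0.96 to 0.97) and Xpnpep1, Kansl2 and Hmox1 in KO VSMC (r = 0.94 to 0.96). Cd36 was closest to Mtmr10, Ccl2 and Gm56730 in EC (r = 0.79 to 0.81) and to Sipa1, Impa2 and Gm42528 in WT VSMC (r = 0.92 to 0.94). In WT VSMC Fabp5 was closest to Gask1b, Zfp821 and Tmsb4x, Slc27a3 to Metrnl, Col23a1 and Nupr1, and Slc27a4 to Ptp4a3, Rbpms and Adcy1 (r = 0.94 to 0.96).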

How the data were processed

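RNA was poly(A) selected and sequenced paired-end. The authors aligned the reads with HISAT2 2.1.0 to mm39 and deposited raw counts per gene from featureCounts, with multi-mapping reads counted and Ensembl genes. Of 56953 rows 56310 had an annotated identifier, and the others held 0.0241% of the counts. All 69 count columns were used. The members and gene lists were chosen with earlier results of these data known. Counts were normalized by TMM and tested with the quasi-likelihood test of edgeR 4.0.16 (R 4.3.3), with filterByExpr and the set number as a block, separately per cell type. Calls had a Benjamini-Hochberg FDR under 0.05 over 17148 genes for EC, 16905 for WT VSMC and 17538 for KO VSMC. The SE given with an edgeR log2FC is the size of the log2FC divided by the square root of the test's F statistic. Differences of effects came from joint fits. Control levels were compared without a block. DESeq2 1.42.0, the DEG rule of the study (both tools, log2FC of at least 0.64 in size, 3 FPM), other filters and blocks and leaving out each set were alternatives. Results of some genes in the lists are not reported here.

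The labels tie each set to 1 animal. Deviations from the group means correlated within sets with a mean r of 0.858 for EC, 0.818 for WT VSMC and 0.804 for KO VSMC, and between sets with -0.0935, -0.274 and -0.286. Named genes were all members, up to 4 called genes of largest change per list, comparison and direction, and for each member called under ALL the 3 genes of highest r. Libraries of 1 group were distinct, with a chi-square of at least 41.6 per gene over 207 pairs. Relations over EC animals used exact two-sided permutation tests. Intervals of counting error and floors cover counting error only.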

Additional observations from a re-analysis of the deposited data

Results flagged for a closer look

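A library was noted where it stood apart from the others of its group by Dixon's test at the 95% level. This held for 34 of 108 groups of 1 member, cell type and condition. The level of the test holds for normally distributed values, and FPM were used without a log scale. The count of groups therefore cannot be set against a chance rate. In the noted VSMC groups of Gpihbp1 the other libraries held no counts, so that any library with counts was bound to stand apart. The 4 libraries of a set share their animal, so the groups are not independent, and the causes were not tested.

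Fabp4 was high in WT VSMC set 3 in every condition, with 173 FPM in Control, 296 FPM under HG + FFA, 185 FPM under AII + NA and 347 FPM under ALL. In KO VSMC set 8 it was high with 63.3, 106 and 54.4 FPM in Control, HG + FFA and AII + NA. KO VSMC set 5 retained Egfr RNA, and its markers also differed from those of KO VSMC sets 6 to 8. Myh11 was 239 FPM in set 5 against 2.75 to 7.62 FPM in the others. The summed macrophage markers were 153 FPM against 13.5 to 35.6 FPM, and the summed fibroblast markers 6443 FPM against 1853 to 2541 FPM. Set 5 stood apart in 10 groups. Lpl was 78.5, 74.1 and 84.9 FPM there in Control, HG + FFA and AII + NA, and Slc27a3 was 63.5 and 64.4 FPM under HG + FFA and AII + NA. Slc27a1 was 94.8 FPM in its Control library, Cd36 was 1.10 FPM under AII + NA, and Gpihbp1 was 0.104, 0.167 and 0.100 FPM in Control, HG + FFA and AII + NA.

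In EC, Cd36 was high in set 12 with 88.8 FPM under HG + FFA and 70.2 FPM under ALL, and in set 14 with 2.1 FPM in Control and 3.26 FPM under AII + NA. Lpl was high in set 13 with 323, 278 and 340 FPM under HG + FFA, AII + NA and ALL. Fabp5 was high in set 18 with 347, 404 and 359 FPM in Control, AII + NA and ALL. Slc27a1 was high in set 9 with 79.5 and 79.1 FPM under HG + FFA and ALL. Gpihbp1 was 0.357 FPM in set 18 under AII + NA and 0.626 FPM in set 12 under ALL. In WT VSMC, Fabp3 was 8.84 FPM in set 1 under HG + FFA, and Gpihbp1 was 0.0686 FPM in set 2 in Control and 0.0465 FPM in set 4 under ALL, with no counts in the other libraries of these 2 groups.

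The ALL effect on Fabp5 differed between EC and WT VSMC by -1.18 on the log2 scale in a test of the difference (edgeR, FDR 0.0109). The call was lost for Fabp5 without set 2 (FDR 0.174), without set 4 (FDR 0.0848) and with the animal as the block (FDR 1.0). That block was nested in cell type and joined only EC sets 17 and 18. WT VSMC sets 1 and 2 and EC sets 9 and 10 share 2 animals, which no fit took into account.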

How the results depend on the processing

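Without the replicate block no member was called in any stressor comparison, that is 0 in place of 1 and 6 in WT VSMC, 2 and 2 in KO VSMC, 3 and 3 in EC under HG + FFA and ALL, and 0 in place of 1 for the difference of ALL between EC and WT VSMC. With the animal as the block EC kept 1 member under HG + FFA and 1 under ALL, Slc43a3, which was chosen for a rise in EC, and that difference kept 0. In WT VSMC under HG + FFA the count of 1 became 4 in DESeq2, 0 by the DEG rule of the study, 5 without the low-count filter and 4 when the 2 groups were fitted alone, which gave 0 in KO VSMC. Without the low-count filter 3 members were called under AII + NA in WT VSMC, 3 for ALL against HG + FFA in WT VSMC, 2 and 1 for the genotype difference of AII + NA and ALL, and 2 for the difference of AII + NA between EC and WT VSMC. DESeq2 called 1 member between KO VSMC and WT VSMC in Control. Spearman's rho left 1 member related to endothelial markers, and the Control libraries left 0 related to fibroblast markers.

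Leaving out 1 set in turn gave counts of 0 to 1 in WT VSMC under HG + FFA, 4 to 5 under ALL, 0 to 2 in KO VSMC under HG + FFA and under ALL, 2 to 3 in EC under HG + FFA and under ALL, 0 to 1 for the difference of ALL between EC and WT VSMC, 0 to 2 between KO VSMC and WT VSMC and 1 to 3 between EC and WT VSMC in Control. Leaving out 1 animal gave 1 to 3 related members for each marker list. All other comparisons stayed at 0 when a set was left out. Of the alternatives for 47 single results, 516 kept direction and side of the threshold, 77 lost and 24 gained a call, and none changed sign with a call. The members counted in EC include Slc43a3, which was chosen for a rise there. Leaving out EC sets 9, 11 and 13, or sets 15 and 16, both chosen after seeing the data, kept 3 called members in EC under HG + FFA and under ALL. The causes of these changes were not tested. Depth limits Gpihbp1 and Cd36, whose libraries often held 0 to 3 counts.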
